A study of Homo sapiens with 6 samples.

Results

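Tight junction and polarity genes were described in SW480 cells carrying a retroviral FOXC2 construct (FOXC2 cells) and in SW480 cells carrying the control vector pBabe (pBabe cells), with 3 arrays per group from separate cultures. The set was a list of 45 gene symbols chosen by function: claudins, proteins of the MARVEL and tricellular families, junctional adhesion molecules, cytoplasmic scaffolds, the Crumbs and PAR complexes, LGL proteins and RAB25. Of these, 34 had at least 1 array feature named by the platform's probe annotation, out of 12562 named genes. Where the array held more than 1 feature for a gene, the brightest over the 6 arrays was used. A further 2, F11R and MAGI1, were named only through a RefSeq accession and are given apart, and 9 (CLDN8, CLDN10, CLDN11, CLDN16, CLDN18, CLDN23, JAM2, TJP3 and MAGI3) were not analysed here. SW480 is a human colorectal adenocarcinoma line, and FOXC2, a factor of the forkhead family, is known for its roles in blood and lymphatic vessels and in epithelial-mesenchymal transition. Cells of both groups went through retroviral transfer, puromycin selection (0.5 μg/mL, 3 to 5 days) and growth in 10% serum to 90% confluence. The labels give neither the promoter that drives the construct nor whether the cultures came from separate transductions, so p-values measure the spread between cultures.

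Tight junctions close the space between epithelial cells near their apical border. Claudins form their strands and set which ions pass, occludin and tricellulin belong to the MARVEL family of membrane proteins, and scaffolds such as ZO-1 tie the strands to actin. The Crumbs and PAR complexes define the apical side and the LGL proteins the basolateral side, and in colon epithelium these systems hold the barrier between lumen and tissue.

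The labels were checked on the introduced gene, which had intensities of 8777, 8262 and 8344 in FOXC2 cells and of 2319, 2323 and 2818 in pBabe cells. The arrays had median intensities between 895 and 913, and the lowest value in the table was 50.002. Of 8 colon epithelial markers measured, 5 were higher (62.5%) and 1 was lower (12.5%) in FOXC2 cells, against 13.3% and 13% of all features, with a median log2 fold change of 1.05; CDX1, GPA33 and KRT20 were not analysed here. VIL1 (villin) averaged 4925 in FOXC2 cells and 572 in pBabe cells, 3.11 higher on the log2 scale (limma adjusted p 3.55e-05). EPCAM averaged 3618 in FOXC2 cells and 711 in pBabe cells, 2.35 higher on the log2 scale (limma adjusted p 3.55e-05). CDX2 (1.19), KRT19 (1.06) and CDH1 (1.03), the gene of E-cadherin, also rose. CDH1 was dim, at mean intensities of 202 in FOXC2 cells and 98.5 in pBabe cells, and CDH17 (-0.12) did not pass. The summed intensity of the 8 was 73147 to 77492 in FOXC2 cells and 67670 to 72797 in pBabe cells, most of it from the keratins KRT8 (-0.14, not passed) and KRT18, which fell by 0.30. Of 4 fibroblast markers measured (9 listed) 3 fell (COL1A1, DCN and PDGFRB), 75% against 13% of all features. COL3A1 had a positive estimate, 0.37, and did not pass (limma adjusted p 0.116). The summed intensity of the 4 was 821 to 1009 in FOXC2 cells and 3290 to 4095 in pBabe cells. Of 2 leukocyte markers measured (7 listed) 1, CD3D, fell, 50% against 13% of all features. The sum of the 2 was 172 to 277 in FOXC2 cells and 841 to 1165 in pBabe cells. The part of these markers in the results below was not tested. All cultures were of the SW480 line. In bulk RNA, the share of cells expressing a gene and its RNA per cell cannot be told apart.

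Of the 34 members, 8 were higher and 4 lower in FOXC2 cells, and 22 did not pass. The test was limma on log2 intensities over all 33497 features, with p-values adjusted by the Benjamini-Hochberg method and a threshold of 0.05. The members that passed were 35.3% of those measured, against 26.3% of all features. Split by direction, 23.5% of members were higher, against 13.3% of all features, and 11.8% were lower, against 13% of all features. The FOXC2 and pBabe arrays did not overlap for 17 of the 34 members, 50% against 45.5% of all features. The median log2 fold change (FOXC2 minus pBabe) was 0.04 over the members and 0.03 over all features. Of the 34 members only MARVELD2 both passed and changed at least 2-fold, as did 6% of all features. By role, the members that passed comprised the tricellular protein gene MARVELD2, 3 sealing claudins, a pair of scaffolds and CRB3. They also held all 5 listed genes of the PAR complex, which went both ways.

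**Figure D1:**
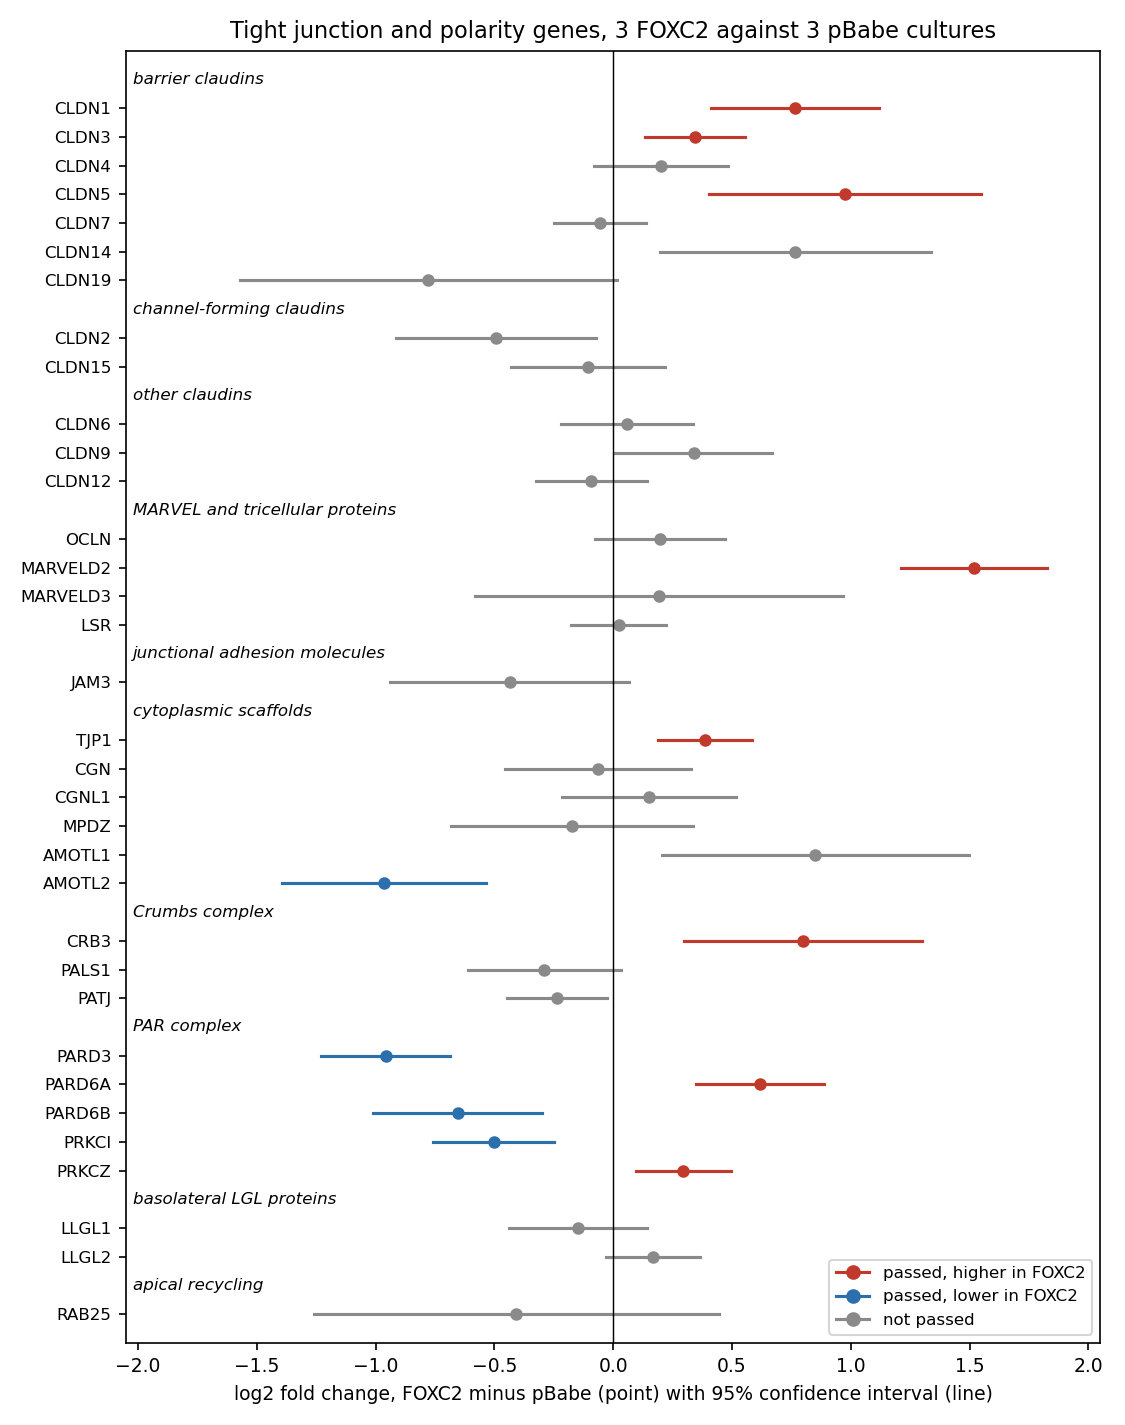
Log2 fold change (FOXC2 minus pBabe, horizontal axis) of the 34 members, grouped by role, with points for the estimates and lines for 95% confidence intervals. Red marks the 8 members that passed as higher, blue the 4 that passed as lower and grey the 22 that did not pass. MARVELD2 lies farthest to the right, and all 5 listed genes of the PAR complex are coloured.

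MARVELD2 encodes tricellulin, which seals the points where 3 cells meet. Its intensities were 758, 804 and 750 in FOXC2 cells and 312, 228 and 274 in pBabe cells. The groups lay far apart, with the lowest FOXC2 array above the highest pBabe array. MARVELD2 rose 2.86-fold (95% confidence interval 2.31 to 3.54), a log2 fold change of 1.52 ± 0.129 (SE, n = 3 per group; limma adjusted p 4.32e-04). With each array left out in turn the log2 fold change lay between 1.40 and 1.62 and the limma adjusted p was at most 0.00309. Both groups were dimmer than the median of all values, an intensity of 903.

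OCLN, which encodes occludin, is the next protein-coding gene to MARVELD2 on chromosome 5 in the RefSeq gene table. OCLN had intensities of 309, 367 and 401 in FOXC2 cells and 305, 318 and 312 in pBabe cells, and the groups overlapped. Its log2 fold change was 0.20 (95% confidence interval -0.08 to 0.47; limma adjusted p 0.249). The log2 ratio of MARVELD2 to OCLN within an array averaged 1.11 ± 0.197 in FOXC2 cells and -0.21 ± 0.258 in pBabe cells (SD, n = 3 each). The 3 ratios of FOXC2 cells lay above those of pBabe cells (exact permutation test, two-sided p = 0.1, the smallest that 3 against 3 arrays allow, and 0.143 after adjustment over the 10 ratios compared). The gap between the groups of MARVELD2 was wider than the whole range of OCLN, so this separation follows from MARVELD2 and adds no support.

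The other listed proteins of this class did not pass. LSR (angulin-1), which recruits tricellulin to tricellular contacts, had a log2 fold change of 0.02 (95% confidence interval -0.18 to 0.22), with mean intensities of 4579 in FOXC2 cells and 4509 in pBabe cells. The other features of LSR had log2 fold changes of 0.08 and 0.10, and neither passed. MARVELD3, a further MARVEL protein of the tight junction, was dim, at mean intensities of 129 in FOXC2 cells and 116 in pBabe cells. Its log2 fold change was 0.19, with an interval of -0.58 to 0.97 that leaves its size undetermined, and without pBabe replicate 1 it was -0.14. Its second feature was at 0.44 and did not pass either (limma adjusted p 0.0925). Outside the list, MARVELD1 fell by 0.51 (limma adjusted p 0.0203), without overlap between the groups. ILDR1 (0.50, limma adjusted p 0.175) and ILDR2 (0.23, limma adjusted p 0.482), also outside the list, did not pass.

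Of 12 listed claudins measured, 3 were higher and 0 lower, which is 25% passing against 26.3% of all features. At an unadjusted p under 0.05 there were 6, with CLDN2 the one that was lower, against 39.8% of all features. CLDN20, outside the list, was at 0.24 and did not pass (limma adjusted p 0.487). The 3 that passed, CLDN1, CLDN3 and CLDN5, were among 7 claudins known mainly as sealing claudins. CLDN1, a widely expressed barrier claudin, had intensities of 995, 1246 and 1252 in FOXC2 cells and 741, 574 and 744 in pBabe cells. The lowest FOXC2 array was above every pBabe array. CLDN1 rose 1.70-fold (95% confidence interval 1.33 to 2.17; limma adjusted p 0.0113), and it passed with each array left out (adjusted p at most 0.0423).

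CLDN5 is best known from the blood-brain barrier, where it seals endothelial junctions. Its intensities were 199, 115 and 158 in FOXC2 cells and 71.2, 101 and 65.8 in pBabe cells. The groups did not overlap, but FOXC2 replicate 2 and pBabe replicate 2 were close and all values lay near the floor of the table. CLDN5 rose by 0.98 ± 0.240 (SE) on the log2 scale (limma adjusted p 0.0262). It did not pass without FOXC2 replicate 1 (limma adjusted p 0.065), FOXC2 replicate 3 (0.0753), pBabe replicate 1 (0.0781) or pBabe replicate 3 (0.0783). The endothelial markers measured were EGFL7, which rose by 0.86, and ESAM, also a junction gene, which fell by 0.53. Their summed intensity was 2404 to 2417 in FOXC2 cells and 1745 to 1819 in pBabe cells; PECAM1, CDH5, KDR, TEK and VWF were not analysed here, and the part of endothelial transcripts was not tested. ESAM did not pass without FOXC2 replicate 1 (limma adjusted p 0.056), FOXC2 replicate 2 (0.0582), pBabe replicate 1 (0.0723) or pBabe replicate 2 (0.0749).

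CLDN3 and CLDN4, neighbouring genes on chromosome 7 that encode colonic claudins known as receptors of a Clostridium perfringens toxin, were both well above the floor. CLDN3 had intensities of 2190, 1991 and 2261 in FOXC2 cells and 1696, 1716 and 1650 in pBabe cells, without overlap. It rose 1.27-fold (95% confidence interval 1.10 to 1.47; limma adjusted p 0.0298). The call held without FOXC2 replicate 2 (limma adjusted p 0.0415) and was lost without FOXC2 replicate 1 (0.0809), FOXC2 replicate 3 (0.101), pBabe replicate 1 (0.0678), pBabe replicate 2 (0.0663) or pBabe replicate 3 (0.0762).

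CLDN4 intensities were 22579, 22330 and 26650 in FOXC2 cells and 20814, 22814 and 18634 in pBabe cells, with overlap between the groups. Its log2 fold change was 0.20 (95% confidence interval -0.08 to 0.48; limma adjusted p 0.253), an interval that contains the change of CLDN3. The log2 ratio of CLDN3 to CLDN4 within an array was -3.47 ± 0.0976 in FOXC2 cells and -3.62 ± 0.118 in pBabe cells (SD, n = 3 each), and the groups overlapped (exact permutation test, two-sided p = 0.2; 0.25 adjusted over the 10 ratios). CLDN7, a claudin of the colonic lateral membrane, did not pass, with a log2 fold change of -0.06 (95% confidence interval -0.25 to 0.14).

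CLDN14 and CLDN19, known from the inner ear and kidney, did not pass. CLDN14 intensities were 93.9, 88.2 and 160 in FOXC2 cells and 60.0, 75.6 and 59.5 in pBabe cells, without overlap; the log2 fold change was 0.77 and the limma adjusted p 0.0564. It passed with quantile normalization (limma adjusted p 0.0492). CLDN19 had a log2 fold change of -0.78 with an interval of -1.57 to 0.02.

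Neither of the 2 channel-forming claudins measured passed. CLDN2, which conducts cations and water in leaky epithelia, had intensities of 92.3, 66.8 and 64.7 in FOXC2 cells and 103, 121 and 89.0 in pBabe cells. The groups overlapped in 1 pair of arrays, FOXC2 replicate 1 and pBabe replicate 3. The log2 fold change was -0.49 (95% confidence interval -0.91 to -0.07; limma adjusted p 0.0834), and it passed without FOXC2 replicate 1 (limma adjusted p 0.0331) and with quantile normalization (0.0438). CLDN15, a cation channel of the intestine, had a log2 fold change of -0.11 (95% confidence interval -0.43 to 0.22).

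Of the remaining claudins, CLDN12 (-0.09) and CLDN6 (0.06), an embryonic claudin, did not pass. CLDN9, the neighbour of CLDN6 on chromosome 16, was at a log2 fold change of 0.34, which did not pass (limma adjusted p 0.12), and passed without pBabe replicate 2 (limma adjusted p 0.023). Within an array, the log2 ratio of CLDN9 to CLDN6 was 0.42 ± 0.185 in FOXC2 cells and 0.14 ± 0.315 in pBabe cells (SD, n = 3 each), with overlap (exact permutation test, two-sided p = 0.3; 0.333 adjusted over the 10 ratios).

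**Figure D2:**
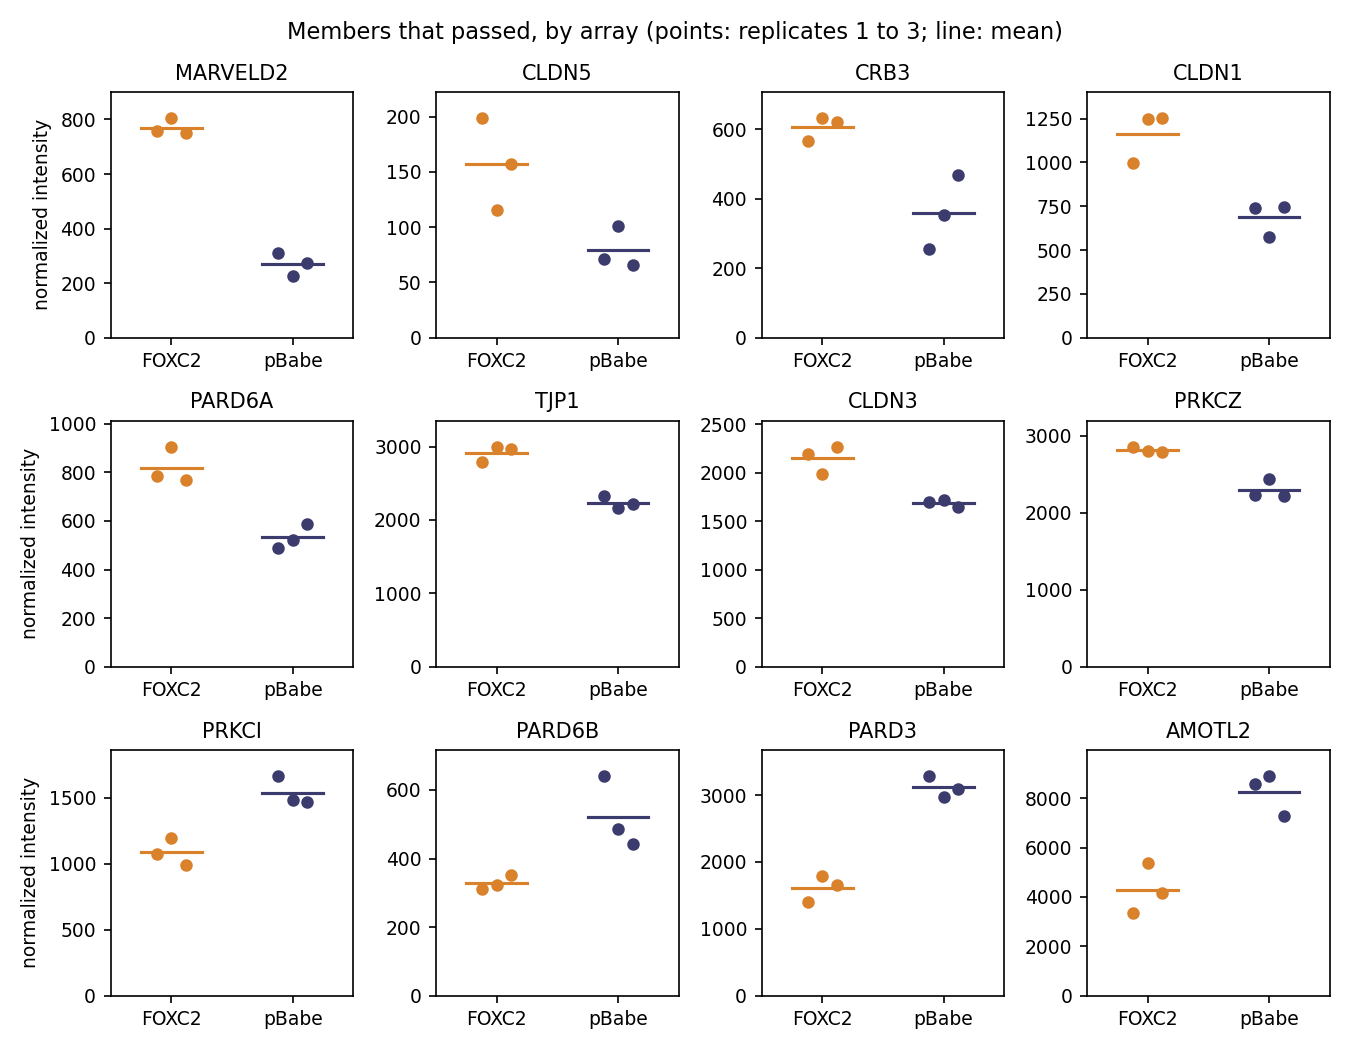
Normalized intensity (vertical axes, each from 0) on every array of the 12 members that passed, ordered from the highest to the lowest log2 fold change, with FOXC2 cells left of pBabe cells, points for replicates 1 to 3 and lines for means. The groups do not overlap in any of the 12 panels; CLDN5 lies nearest the floor of 50.002, and AMOTL2, PARD3, PARD6B and PRKCI are lower in FOXC2 cells.

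Junctional adhesion molecules, immunoglobulin-like proteins of the junction, were represented by JAM3, at a log2 fold change of -0.44 (95% confidence interval -0.94 to 0.07; limma adjusted p 0.174). The feature named F11R (JAM-A) through its RefSeq accession had intensities of 2232, 2415 and 2112 in FOXC2 cells and 2148, 1773 and 2249 in pBabe cells. Its groups overlapped, at a log2 fold change of 0.14 (95% confidence interval -0.15 to 0.42).

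Among 6 scaffolds measured, TJP1 was higher and AMOTL2 lower, 33.3% passing against 26.3% of all features. TJP1 encodes ZO-1, which links claudins and occludin to actin. Its intensities were 2795, 2990 and 2962 in FOXC2 cells and 2320, 2160 and 2213 in pBabe cells, tight within each group. TJP1 rose by 0.39 on the log2 scale (95% confidence interval 0.19 to 0.58; limma adjusted p 0.0166). It did not pass without FOXC2 replicate 2 (limma adjusted p 0.0588), FOXC2 replicate 3 (0.0607) or pBabe replicate 2 (0.0525).

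AMOTL2, an angiomotin-like protein that binds YAP and junction scaffolds, had intensities of 3363, 5355 and 4141 in FOXC2 cells and 8590, 8883 and 7264 in pBabe cells. Every FOXC2 array was below every pBabe array, although FOXC2 cells varied more. AMOTL2 fell to 51.2% of the pBabe level (95% confidence interval 38.0% to 69.1%; limma adjusted p 0.01), and it passed with each array left out (adjusted p at most 0.0366).

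Its paralogue AMOTL1 had intensities of 344, 538 and 389 in FOXC2 cells and 195, 186 and 340 in pBabe cells. The groups were separated by a narrow gap, between FOXC2 replicate 1 and pBabe replicate 3. The log2 fold change of AMOTL1, 0.85, did not pass (limma adjusted p 0.0602), but it passed without pBabe replicate 3 (1.13; limma adjusted p 0.0169), with a trended robust prior (0.0137) and with array weights (0.0466). Within an array, the log2 ratio of AMOTL1 to AMOTL2 was -3.34 ± 0.0656 in FOXC2 cells and -5.15 ± 0.640 in pBabe cells (SD, n = 3 each). These ratios did not overlap (exact permutation test, two-sided p = 0.1, and 0.143 adjusted over the 10 ratios). AMOTL1 was higher and AMOTL2 lower on every FOXC2 array, so this outcome was fixed in advance and adds no support.

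CGN (cingulin, -0.07), CGNL1 (paracingulin, 0.15) and MPDZ (the multi-PDZ protein MUPP1, -0.17) did not pass. Cingulin and MPDZ changed sign when 1 array was left out, to 0.10 without pBabe replicate 1 and to 0.05 without FOXC2 replicate 1. MAGI1, a scaffold with several PDZ domains, was named only through its RefSeq accession. Its intensities were 134, 177 and 137 in FOXC2 cells and 331, 313 and 294 in pBabe cells, far from overlapping. MAGI1 fell to 47.3% of the pBabe level (95% confidence interval 38.1% to 58.8%; limma adjusted p 0.00184).

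Of the Crumbs complex, formed by CRB3, PALS1 and PATJ in epithelia, 1 of 3 genes passed, 33.3% against 26.3% of all features. CRB3, its membrane protein, had intensities of 565, 631 and 620 in FOXC2 cells and 256, 352 and 467 in pBabe cells. The FOXC2 arrays were close together and above all pBabe arrays, which were spread. CRB3 rose 1.74-fold (95% confidence interval 1.23 to 2.46; limma adjusted p 0.033), and its second feature had a log2 fold change of 0.69 and did not pass (limma adjusted p 0.164). The brighter feature did not pass without FOXC2 replicate 1 (limma adjusted p 0.065), FOXC2 replicate 2 (0.0891), FOXC2 replicate 3 (0.0906) or pBabe replicate 2 (0.0789).

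The scaffolds of the complex had negative estimates and did not pass. PATJ intensities were 822, 822 and 894 in FOXC2 cells and 1042, 946 and 1006 in pBabe cells, without overlap; the log2 fold change was -0.24 and the limma adjusted p 0.0915. It passed when dim features were left out of the fit (limma adjusted p 0.0386). PALS1 was at -0.29 (95% confidence interval -0.61 to 0.03).

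The 250 bases before the gene start are shown for CLDN1, TJP1 and AMOTL2, which were among the bright members with the largest changes in each direction, for the neighbours MARVELD2, which rose, and OCLN, which did not pass, and for CRB3, a gene known to be repressed by SNAI and ZEB factors. The last 3 were chosen after their values were seen. Sequences are RefSeq, GRCh38.p14, 5′ to 3′ on the strand of the gene. They lie at chr5:69414866-69415115 (plus strand) for MARVELD2, chr5:69492297-69492546 (plus) for OCLN, chr19:6464021-6464270 (plus) for CRB3, chr15:29969050-29969299 (minus) for TJP1, chr3:190322447-190322696 (minus) for CLDN1 and chr3:134375418-134375667 (minus) for AMOTL2. Capitals mark the E-box CAGGTG read on either strand (CACCTG on the other), the letters bound by SNAI and ZEB factors.
MARVELD2: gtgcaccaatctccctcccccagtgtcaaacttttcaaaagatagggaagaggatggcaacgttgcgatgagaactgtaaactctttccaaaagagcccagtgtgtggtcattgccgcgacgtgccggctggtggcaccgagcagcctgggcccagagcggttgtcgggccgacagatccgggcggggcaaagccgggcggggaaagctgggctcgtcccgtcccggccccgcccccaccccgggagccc
OCLN: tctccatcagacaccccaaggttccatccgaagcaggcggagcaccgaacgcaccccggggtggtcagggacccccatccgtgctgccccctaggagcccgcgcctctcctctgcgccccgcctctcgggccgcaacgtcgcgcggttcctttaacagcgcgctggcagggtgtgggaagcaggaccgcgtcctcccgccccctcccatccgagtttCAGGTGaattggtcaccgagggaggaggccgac
CRB3: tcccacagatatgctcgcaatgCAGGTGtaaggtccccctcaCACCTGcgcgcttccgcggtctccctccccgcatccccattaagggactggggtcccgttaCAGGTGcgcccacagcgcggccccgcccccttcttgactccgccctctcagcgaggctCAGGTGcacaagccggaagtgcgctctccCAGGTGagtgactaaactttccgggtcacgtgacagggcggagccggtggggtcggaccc
TJP1: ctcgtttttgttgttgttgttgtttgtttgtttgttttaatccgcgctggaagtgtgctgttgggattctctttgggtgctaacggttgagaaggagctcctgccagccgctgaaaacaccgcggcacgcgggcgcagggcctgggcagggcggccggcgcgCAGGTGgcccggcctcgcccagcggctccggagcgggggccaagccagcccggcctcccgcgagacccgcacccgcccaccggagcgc
CLDN1: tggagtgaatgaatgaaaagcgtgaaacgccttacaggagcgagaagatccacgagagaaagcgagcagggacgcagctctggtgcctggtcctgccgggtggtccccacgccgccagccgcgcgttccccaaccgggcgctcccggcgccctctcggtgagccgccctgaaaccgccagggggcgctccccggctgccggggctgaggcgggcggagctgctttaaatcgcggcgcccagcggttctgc
AMOTL2: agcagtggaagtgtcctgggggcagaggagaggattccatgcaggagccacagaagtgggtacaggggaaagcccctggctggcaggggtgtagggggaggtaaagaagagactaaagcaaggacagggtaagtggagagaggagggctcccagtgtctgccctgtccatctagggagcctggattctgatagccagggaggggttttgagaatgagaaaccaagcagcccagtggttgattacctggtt

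CAGGTG occurred 5 times before CRB3, 1 time before OCLN and 1 time before TJP1, and not in these windows of MARVELD2, CLDN1 and AMOTL2. Of 26 members with such a sequence in the table, 5 held it (19.2%), against 17.5% of all 27305 promoters of the same length. The wider E-box CANNTG, which contains CAGGTG, was in 38.5% of members and 62.2% of all promoters; their median GC content was 65.4% and 58%. The forkhead core TAAACA, on either strand, was in 1 of 26 members, PATJ (3.85%), against 11.1% of all promoters. That match was also the only one to GTAAACA, which contains TAAACA. These matches describe letters and not binding.

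All 5 listed genes of the PAR complex passed, 3 lower and 2 higher, against 26.3% of all features. The list was chosen with earlier results of these data known, so this share is no test of the complex. Outside the list, the paralogue PARD3B (0.41; limma adjusted p 0.205) and CDC42 (0.38; limma adjusted p 0.0762), the GTPase that binds PAR6 proteins, did not pass. PARD3, the scaffold that gathers the complex at the junction, had intensities of 1399, 1784 and 1651 in FOXC2 cells and 3280, 2978 and 3093 in pBabe cells. The groups were separated by more than their own ranges. PARD3 fell to 51.5% of the pBabe level (95% confidence interval 42.6% to 62.2%), a log2 fold change of -0.96 ± 0.115 (SE; limma adjusted p 0.00171), and the limma adjusted p was at most 0.00854 with each array left out.

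PARD6A and PARD6B encode paralogous adaptors that bind CDC42 and the atypical protein kinases C, and they moved in opposite directions. PARD6A had intensities of 784, 903 and 768 in FOXC2 cells and 490, 521 and 589 in pBabe cells. PARD6B had intensities of 312, 321 and 351 in FOXC2 cells and 640, 485 and 442 in pBabe cells. Neither gene's groups overlapped. PARD6A rose 1.53-fold (95% confidence interval 1.27 to 1.85; limma adjusted p 0.00894). PARD6B fell to 63.5% of the pBabe level (95% confidence interval 49.6% to 81.3%; limma adjusted p 0.0204). PARD6A passed with each array left out (adjusted p at most 0.0322), whereas PARD6B did not pass without FOXC2 replicate 1 (limma adjusted p 0.0609) or FOXC2 replicate 2 (0.0609).

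The log2 ratio of PARD6A to PARD6B within an array was 1.33, 1.49 and 1.13 in FOXC2 cells and -0.38, 0.10 and 0.41 in pBabe cells. All FOXC2 ratios were above all pBabe ratios, with a difference of means of 1.27, so the ratio was 2.42-fold higher in FOXC2 cells (exact permutation test, two-sided p = 0.1; 0.143 adjusted over the 10 ratios). Because PARD6A was higher and PARD6B lower on every FOXC2 array, this separation and its p were fixed in advance and add no support. A further paralogue, PARD6G, outside the 34 members, rose by 0.58 (limma adjusted p 0.0415).

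The kinases of the complex, the atypical protein kinases C, likewise moved apart. PRKCI (iota) had intensities of 1076, 1195 and 988 in FOXC2 cells and 1661, 1481 and 1468 in pBabe cells. PRKCZ (zeta) had intensities of 2852, 2805 and 2788 in FOXC2 cells and 2236, 2438 and 2213 in pBabe cells. Both were free of overlap, and the FOXC2 arrays of PRKCZ were within a narrow range. PRKCI fell to 70.6% of the pBabe level (95% confidence interval 59.2% to 84.2%; limma adjusted p 0.0159), and it did not pass without FOXC2 replicate 3 (0.0556). PRKCZ rose 1.23-fold (95% confidence interval 1.07 to 1.41; limma adjusted p 0.0422).

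The call on PRKCZ was lost whichever array was left out. The limma adjusted p for PRKCZ was 0.103, 0.104 and 0.106 without FOXC2 replicates 1, 2 and 3, and 0.101, 0.0538 and 0.103 without pBabe replicates 1, 2 and 3. The log2 ratio of PRKCZ to PRKCI was 1.38 ± 0.135 in FOXC2 cells and 0.58 ± 0.145 in pBabe cells (SD, n = 3 each), without overlap (exact permutation test, two-sided p = 0.1; 0.143 adjusted over the 10 ratios). That of PARD6A to PARD3 was -0.97 ± 0.135 in FOXC2 cells and -2.55 ± 0.178 in pBabe cells, also without overlap and with the same p. In each of these ratios the groups of both genes were already apart in opposite directions. The outcome was therefore fixed in advance and adds no support.

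**Figure D3:**
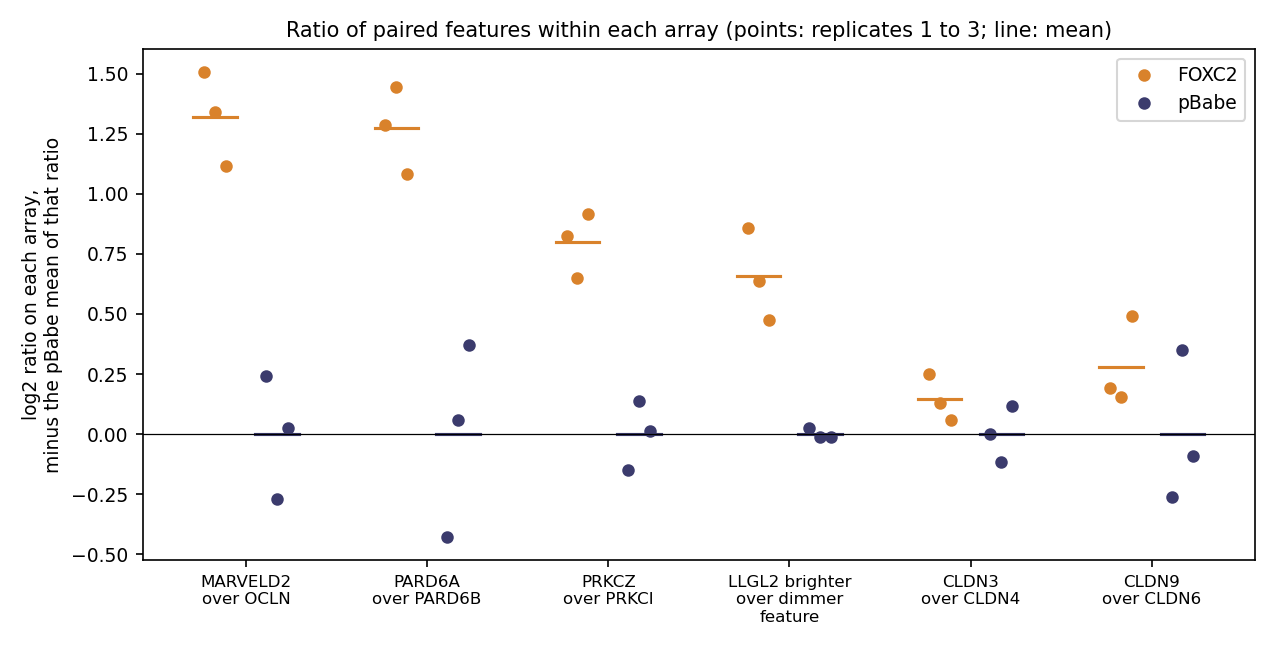
Log2 ratio of 2 features on the same array, minus the mean of that ratio in pBabe cells (vertical axis), for 6 of the 10 ratios compared, with FOXC2 cells left of pBabe cells, points for replicates 1 to 3 and lines for means. The ratios of MARVELD2 to OCLN, PARD6A to PARD6B, PRKCZ to PRKCI and the brighter to the dimmer LLGL2 feature do not overlap between groups, and those of CLDN3 to CLDN4 and CLDN9 to CLDN6 do.

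The LGL proteins, which oppose the PAR complex from the basolateral side, did not pass by the chosen features. LLGL1 was at -0.15 (95% confidence interval -0.44 to 0.14) and LLGL2 at 0.17 (95% confidence interval -0.03 to 0.37). The features of LLGL2, which carry different transcript accessions, went apart. The brighter had intensities of 4686, 4709 and 4312 in FOXC2 cells and 4113, 4072 and 4008 in pBabe cells. The dimmer had 1229, 1443 and 1476 in FOXC2 cells and 1923, 1953 and 1926 in pBabe cells, and it fell by 0.49 (limma adjusted p 0.0136). Each was free of overlap, in opposite directions, so the separation and the p of their ratio were fixed in advance and add no support. The log2 ratio of the brighter to the dimmer feature was 1.73 ± 0.193 in FOXC2 cells and 1.07 ± 0.0220 in pBabe cells (SD, n = 3 each; exact permutation test, two-sided p = 0.1; 0.143 adjusted over the 10 ratios). Where the probes lie in the transcripts is not given here, and averaging the features gave a log2 fold change of -0.16 for LLGL2 (limma adjusted p 0.185).

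RAB25, a small GTPase of apical recycling, lay at the floor of the table, with intensities of 52.4, 61.6 and 84.4 in FOXC2 cells and 51.0, 135 and 92.3 in pBabe cells. The groups overlapped, and the log2 fold change of -0.41 had an interval of -1.26 to 0.44.

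**Figure D4:**
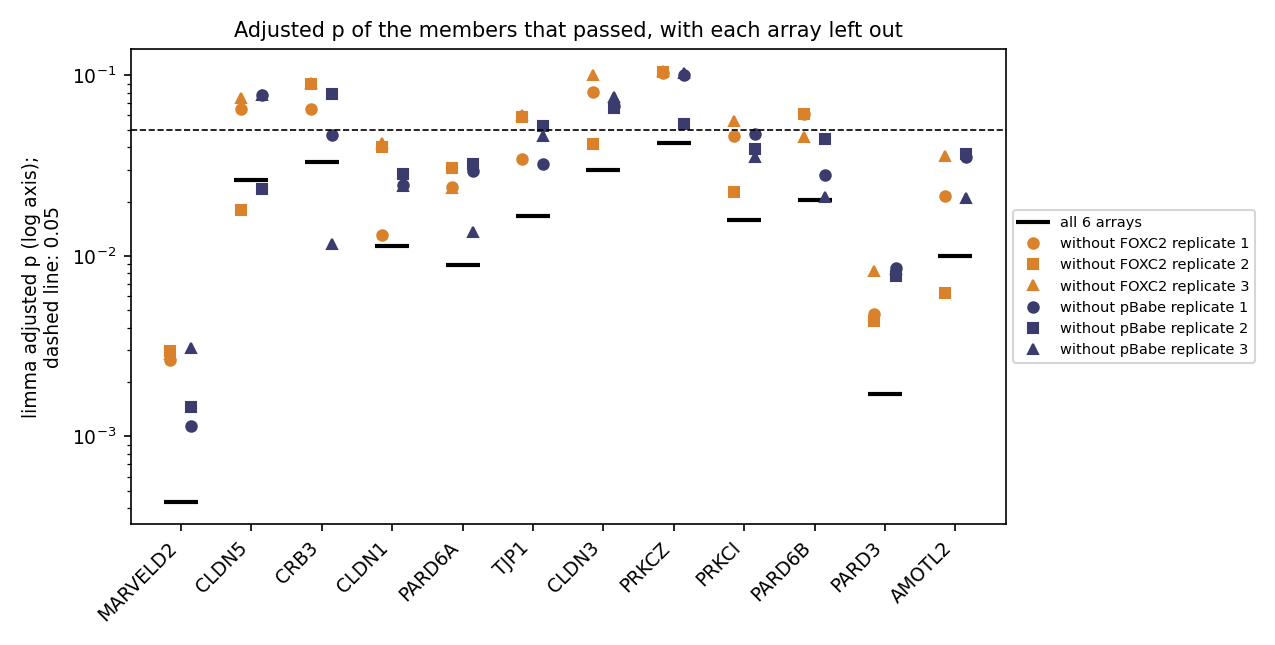
Limma adjusted p (vertical log axis) of the 12 members that passed with all 6 arrays (black bars) and with each array left out (orange, a FOXC2 replicate left out; dark blue, a pBabe replicate left out), with the threshold of 0.05 dashed. MARVELD2, CLDN1, PARD6A, PARD3 and AMOTL2 stay under the line in every case, and PRKCZ is above it in every case.

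Of 14 other tight junction genes measured (22 listed), outside the 34 members, 3 were higher (21.4%, against 13.3% of all features), 6 lower (42.9%, against 13%) and 5 did not pass. WNK4, a kinase known to phosphorylate claudins, rose by 1.35 (limma adjusted p 2.63e-04), with intensities of 920, 1069 and 941 in FOXC2 cells and 380, 358 and 409 in pBabe cells. CXADR, an adhesion protein that serves as a virus receptor, fell by 1.08 (limma adjusted p 8.05e-04), with intensities of 885, 923 and 824 in FOXC2 cells and 2050, 1876 and 1670 in pBabe cells. Both genes were free of overlap.

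Of 35 other polarity genes measured (40 listed), 6 were higher, 6 lower and 23 did not pass. The 34.3% that passed lay near the 26.3% of all features. TIAM1, an exchange factor for RAC that binds PARD3, fell by 1.51 (limma adjusted p 0.00125), with intensities of 307, 398 and 370 in FOXC2 cells and 1237, 1004 and 847 in pBabe cells. DLG1, a basolateral scaffold of the Scribble group, fell by 0.84 (limma adjusted p 7.64e-04), with intensities of 1515, 1482 and 1445 in FOXC2 cells and 2570, 2757 and 2606 in pBabe cells. PRICKLE1, a planar polarity protein, rose by 1.35 (limma adjusted p 0.0126), with intensities of 352, 448 and 483 in FOXC2 cells and 219, 193 and 109 in pBabe cells. None of these 3 genes had overlapping groups.

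**Figure D5:**
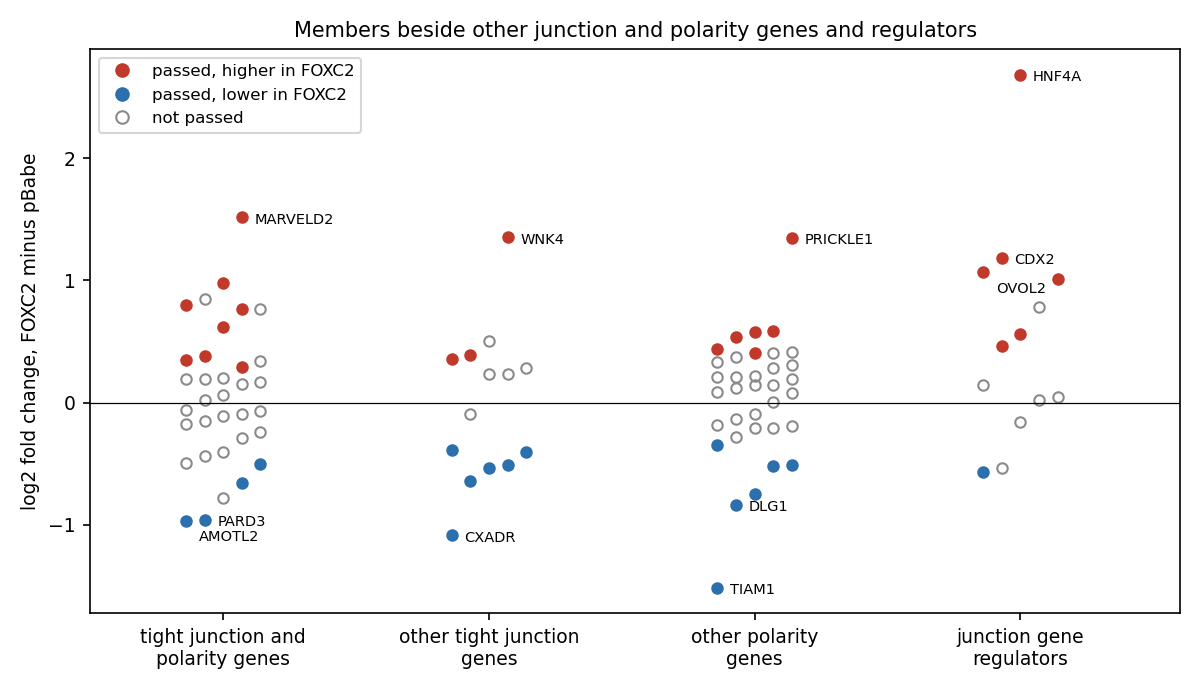
Log2 fold change (FOXC2 minus pBabe, vertical axis) of each gene in the 34 members and in 3 further lists (other tight junction genes, other polarity genes and regulators of junction genes), with red for passing as higher, blue for passing as lower and open circles for not passing. HNF4A is the highest point at 2.68, and MARVELD2, at 1.52, is the highest member.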

How the data were processed

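RNA from each culture was labelled with Cy3 on 1 NimbleGen array per sample, per the labels' protocols. The deposited table gives 1 intensity per feature and array on a linear scale, made with RMA per the submitters' processing notes. The RMA version and settings and the probe positions were not found in the labels. RMA as usually run makes array distributions alike, which would hide a shift shared by all transcripts.

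Intensities were taken to log2 with no offset and compared in limma 3.58.1 (R 4.3.3; lmFit, eBayes) over all 33497 features; the step was tested on simulated data. The members and lists were chosen with earlier results of these data known. All members are described by role. Values on every array belong by rule to members passing at 2-fold or more. Those given for other members, F11R, MAGI1, PARD6G, PARD3B, CDC42, KRT19, CDH1, CDH17, COL3A1, the within-array ratios and 3 promoters were chosen after values were seen. So were those of MARVELD1, ILDR1, ILDR2 and CLDN20. From each further list up to 3 passing genes of largest change were named. One such gene and a ratio with it are not reported here. Features unnamed by the platform were matched to RefSeq transcripts (535 features).

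The results were recomputed with quantile-normalized values, with median-centred arrays, with the replicate number entered as a block, on bright features alone, with a trended and robust variance prior, with weighted arrays, with 16 added before the log, with averaged features per gene, and without each array in turn. Protein sequences, detection calls and scan batches were not used here.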

Additional observations from a re-analysis of the deposited data

How the results depend on the processing

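Under settings that kept all arrays, 241 of 252 member results had the same sign and the same call as in the report; with an array left out, 172 of 204 did. Of the 12 members that passed, 5 did so under every setting they entered. The count of higher members, 8 with all arrays, was 4 with dim features left out, where 14 members entered, and 3 to 6 with each array left out. The count of all features passing, 8819, ranged from 5752 to 6768 with each array left out. Estimates that changed sign belonged to members that did not pass. LLGL2 was -0.16 with means over a gene's features. With each array left out MARVELD3 ranged from -0.14 to 0.45, LSR from -0.0077 to 0.055, CGN from -0.17 to 0.10 and MPDZ from -0.33 to 0.049. The labels do not pair same-numbered cultures, and their deviations from the group means correlated at -0.10, -0.12 and -0.06. With the replicate number as a block 4 members were higher and 3 lower, and 5960 features passed; CLDN3, CLDN5, TJP1, PARD6B and PRKCZ did not pass (adjusted p 0.0921, 0.0689, 0.0683, 0.0548 and 0.116). Leaving out an array leaves fewer arrays in the fit. Without detection calls, signal over background is unknown for dim members.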

Other observations

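Of 13 regulators measured (19 listed) that are known to act on junction and epithelial genes, 6 were higher (46.2%, against 13.3% of all features). Another 1 was lower (7.69%, against 13%) and 6 did not pass. The 6 that were higher included both activators and repressors of epithelial genes. HNF4A, a nuclear receptor of gut and liver epithelium named through its RefSeq accession, had intensities of 6054, 6884 and 7562 in FOXC2 cells and 1019, 1224 and 955 in pBabe cells, which is 2.68 higher on the log2 scale (limma adjusted p 6.13e-05). CDX2, the intestinal homeobox factor, rose by 1.19 (limma adjusted p 0.00103). OVOL2, a zinc finger factor that represses mesenchymal genes, had intensities of 387, 385 and 363 in FOXC2 cells and 206, 188 and 151 in pBabe cells, which is 1.07 higher on the log2 scale (limma adjusted p 0.00177). KLF5, a factor of intestinal crypts, rose by 0.47 (limma adjusted p 0.017), and ELF3, an epithelial ETS factor, fell by 0.57 (limma adjusted p 0.00535). SNAI2 (1.01) and TWIST1 (0.56), which repress epithelial genes, also rose. From the same list, SNAI1 (-0.53, limma adjusted p 0.0556), TCF3 (-0.16) and ZEB1 (0.02) did not pass. KLF5, ELF3, SNAI2, TWIST1, SNAI1, TCF3 and ZEB1 were named after their values were seen.

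Several smaller changes were found among the 35 other polarity genes, of which 34.3% passed, against 26.3% of all features. The polarity kinase MARK2 (PAR1) rose by 0.57 (limma adjusted p 0.00555) and SCRIB, the basolateral scaffold, by 0.44 (limma adjusted p 0.0147), while DLG1, the partner of SCRIB, fell. MPP7, a scaffold that binds DLG1, fell by 0.75 (limma adjusted p 0.011). Of the recycling proteins, RAB11A rose by 0.40 (limma adjusted p 0.0314) and RAB11FIP1, its effector, fell by 0.35 (limma adjusted p 0.0276). The seven-pass cadherins CELSR1 and CELSR2 of planar polarity changed in opposite directions, by 0.54 (limma adjusted p 0.0107) and -0.51 (limma adjusted p 0.0117). From the same list, MARK3 (0.08), MARK4 (0.21), DLG3 (-0.09), DLG5 (-0.19), RAB8A (-0.18) and CELSR3 (-0.20) did not pass. Apart from DLG1, the genes of this paragraph were named after their values were seen.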
